A study of Mus musculus with 10 samples.

Results

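Expression of 7 genes of the renin-angiotensin system was followed in mouse left atrial appendage cells: Agt, the angiotensin precursor; the peptidases Ace, Enpep and Mme; the angiotensin receptors Agtr1a and Agtr2; and Atp6ap2, the prorenin receptor. The genes were picked by symbol from the 36172 listed, with earlier results of these data known. Their values are therefore given as a description, without p-values. Of the 7 genes, 6 could be tested, and Agtr2 was listed at 0 in every library.

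RNA sequencing covered 5 cell types with 2 libraries each, grown from left atrial appendages of C57BL/6 mice of 8 to 12 weeks. A and B were primary cells from explants digested in 3 steps of 5 min with trypsin and collagenase D at 0.1%. For A, trypsin was at 0.25% and the sort took c-kit positive, CD45 negative cells. For B, trypsin was at 0.05% and the sort took cells that carried both proteins. C1 (passage 6, c-kit positive, CD45 negative), C2 (passage 8) and C3 (passage 10, both of these negative for c-kit and CD45) are described in the labels as later passages of B-type cells. Digestion and CD45 sort cannot be told apart between A and B, and neither can passage and the c-kit sort between C1 and the later passages. The same holds for passage and the CD45 sort between C1 and B, and for passage and cells of origin between C1 and A. Whether the 2 libraries of a type stem from different animals or cultures is not said in the labels, so errors and p-values cover no more than the scatter of these samples, and that scatter may be technical.

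In the renin-angiotensin system, renin cuts angiotensinogen to angiotensin I, and angiotensin-converting enzyme (ACE) turns this into angiotensin II, which raises blood pressure and promotes growth and matrix production in heart cells through the type 1 receptor. Aminopeptidase A (Enpep) shortens angiotensin II, and neprilysin (Mme) makes shorter peptides that act in other ways. The prorenin receptor is both a binding site for renin and prorenin and an accessory subunit of the vacuolar ATPase, the proton pump that acidifies lysosomes and endosomes.

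The deposited values were log2 expression with the median of each gene over the 10 libraries taken away, here called centred log2 expression. They were read as size-scaled read counts in which anything below 1 normalized read was set to 1, the floor. This reading was inferred from the values. Where it gave a level, normalized reads are printed, and these are not corrected for gene length, so genes are not ranked by level. Values with ± are log2 differences with their limma standard error. The words rose and fell are kept for genes that were called, with a Benjamini-Hochberg adjusted p below 0.05 and a log2 difference of 1 or more in size.

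The libraries differed in ways that touch the results. The deepest library had 11.5 times the relative depth of the shallowest, and 3 reads were worth 5.04 to 6.87 normalized reads for the primary types, 2 to 6.13 for C1 and C2, and less than the floor for C3. These limits cover counting error only. Ptprc, which encodes CD45, had centred log2 values of 2.74 in the first A library, 6.35 in the second and 11.46 and 11.41 in B, against -0.01 to 0.01 in the C libraries, so the A libraries, both sorted as CD45 negative, differed. Kit, which encodes c-kit, ranged from -0.96 to 3.47 over the A, B and C1 libraries and from -2.71 to -1.07 over C2 and C3. The summed normalized reads of the 4 macrophage markers of known level were 16.1 and 380.1 in A, 22300 to 23240 in B and at most 7.08 in any C library. A level is known only where libraries share the lowest value, so low sums in some libraries are built in. Over all 12 macrophage markers the median centred log2 value of the type means was 1.6 in A and 9.31 in B. It was 0 in C1, -0.27 in C2 and -0.67 in C3. The Y-linked Ddx3y, Eif2s3y, Kdm5d and Uty stood between 78.7 and 1344 normalized reads over the A, B and C1 libraries, between 20.4 and 86.2 over C2, and at the floor in both C3 libraries. The X-linked RNA Xist had centred log2 values of 4.92 and 4.74 in B and 1.09 and 4.12 in A. The C1 libraries lay at -4.82 and -5.24, those of C2 at -5.80 and -4.61, and those of C3 at -0.17 and 0.17. The labels give C1, C2 and C3 as later passages of B-type cells. Yet C1 against B, C2 against C1 and C3 against either are comparisons of libraries that differ in some of these genes. C1 against A is another, with the Xist values given above. No value without these libraries can be given. All 10 fibroblast markers were called lower in C3 than in C2, where 16.2% of all tested genes were. Of 10 epicardial and mesothelial markers, 6 were called higher, where 11.6% of all tested genes were. The part of these shifts in the results below was not tested, and in bulk RNA fewer cells of a type and less RNA per cell cannot be told apart.

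The sequences just upstream of the transcript start are shown for the 2 genes with the widest range over the cell types, Agt and Ace, and for the gene with the narrowest, Atp6ap2. They are the 250 bases before the first RefSeq start listed for each gene (build GRCm38.p6), written along the gene's strand. Agt is on chr8:124569707-124569956 (minus strand), Ace on chr11:105967698-105967947 (plus strand) and Atp6ap2 on chrX:12587509-12587758 (plus strand). Capitals mark motif matches on either strand. The GC box was searched as GGGCGG, which reads CCGCCC on the other strand. The letters used for the TATA box were TATAAA, or TTTATA when reversed and complemented. For the CCAAT box they were those of its name, and ATTGG on the opposite strand.
Agt: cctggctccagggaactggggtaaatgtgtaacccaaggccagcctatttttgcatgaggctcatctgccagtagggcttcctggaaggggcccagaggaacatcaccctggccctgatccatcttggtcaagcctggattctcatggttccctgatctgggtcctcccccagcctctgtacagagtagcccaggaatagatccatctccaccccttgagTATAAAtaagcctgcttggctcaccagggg
Ace: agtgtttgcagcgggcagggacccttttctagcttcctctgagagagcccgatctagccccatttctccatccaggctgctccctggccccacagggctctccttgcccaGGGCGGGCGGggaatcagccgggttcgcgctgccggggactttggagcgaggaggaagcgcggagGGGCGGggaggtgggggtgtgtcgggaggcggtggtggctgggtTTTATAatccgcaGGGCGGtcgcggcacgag
Atp6ap2: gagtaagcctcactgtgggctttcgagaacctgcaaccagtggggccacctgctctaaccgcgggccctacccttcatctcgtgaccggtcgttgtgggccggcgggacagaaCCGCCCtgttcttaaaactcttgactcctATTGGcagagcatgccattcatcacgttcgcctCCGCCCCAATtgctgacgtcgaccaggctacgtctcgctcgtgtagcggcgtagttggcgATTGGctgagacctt
The Agt window held 1 TATA match, 30 bases before the start, and neither of the other motifs. Ace held 1 TATA match at -31 and 4 GC boxes, at -140, -136, -75 and -18, of which the first 2 overlap. Atp6ap2 held no TATA match, 2 GC boxes at -137 and -75, and 3 CCAAT boxes at -108, -70 and -15, where the matches at -75 and -70 share 1 base. Of 32851 promoter windows of the same length, 32.7% held a GC box match, 12.4% a TATA match and 33.8% a CCAAT match. GC content was 55.6% for Agt, 67.2% for Ace and 59.2% for Atp6ap2, against a median of 52.4% over all windows. A match is a description of the letters and was not tested as a binding site. Of the 7 genes, 6 had an entry in the promoter table.

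Agt encodes angiotensinogen, the sole precursor of the angiotensin peptides (chromosome 8, 124556534 to 124569706, minus strand, GRCm38). The second C3 library was taken at the floor, after which reads came out near whole numbers, so these levels are inferred. Agt stood at 769.5 and 223 normalized reads in C1, at 53.7 and 57.4 in A, at 57 and 50.6 in C2, and at 13.8 and 9.05 in B. The C3 libraries had 1.56 normalized reads, which is 6 reads in this deep library, and the floor value of 1. Both C1 libraries thus lay above all others and both C3 libraries below all others, while A and C2 overlapped. The difference was 5.21 ± 0.55 between C1 and B, -2.95 ± 0.55 between C2 and C1 and -5.43 ± 0.55 between C3 and C2. Between C1 and A it was 2.90 ± 0.55. Under quantile normalization the Agt differences were 4.65 between C1 and A and -4.67 between C2 and C1, and neither was called on the 4 libraries alone. B was lower than A by -2.31 ± 0.55, on 6.01 and 5 reads in B, and was no longer called without the second B library (-2.01), with array weights or at an adjusted p under 0.01.

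Ace encodes angiotensin-converting enzyme, which also inactivates bradykinin (chromosome 11, 105967945 to 105989964, plus strand). Its level is unknown, and only differences can be read. If the lowest library, the first of C3, stood at the floor, the second C3 library would hold 7 reads. Differences to C3 may thus be limited by the floor, which their errors do not cover. On the centred log2 scale the A libraries stood at 4.03 and 4.63, C2 at 1.59 and 1.42, B at -0.24 and -0.15, C1 at 0.15 and -0.84, and C3 at -8.49 and -8.02. A was highest in both libraries, C2 came next, B and C1 overlapped, and C3 lay far below all other types. Ace had the widest range of the 6 genes, with 12.59 on the log2 scale between the means of A and C3. B fell below A with -4.52 ± 0.36, C2 rose above C1 with 1.86 ± 0.36 (not called on the 4 libraries alone) and C3 fell below C2 with -9.76 ± 0.36. The difference between C1 and A was -4.68 ± 0.36, and that between C1 and B was -0.16 ± 0.36, which is within the error. Both A libraries were high. They differed in macrophage markers, and the part of this in the Ace values was not tested.

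Enpep encodes aminopeptidase A, a membrane enzyme that removes the first residue of angiotensin II (chromosome 3, 129269175 to 129332720, minus strand). It was found on few reads. A had 11.7 and 20.8 normalized reads and C2 had 6.12 and 16.5, so these types overlapped. B had 2.29 and 1.81, which is 1 read in each library. Both C1 libraries were at the floor, and C3 had 1.56 and the floor. Enpep in A was 2.37-fold above the limit of B and 5.38-fold above that of C1, and in C2 3.74-fold above that of C1. The limit is the higher 3-read value of the lower type's libraries. It is what a library without reads allows, while B held 1 read in each. These folds cover counting error only, and that of the higher type is left out. The exact 95% interval of the ratio of pooled reads between A and B was 1.9 to 70.7. With 1 library left out the folds were 1.71 to 3.03 for A over B and 3.88 to 8.12 for A over C1. For C2 over C1 they were 3.74 to 5.65, but without the second C2 library C2 lay at its own limit and no fold could be given. C3 fell below C2 with -3.01 ± 0.50. B and C1 both lay under their limits and cannot be ranked.

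Mme encodes neprilysin, which degrades natriuretic peptides, bradykinin and angiotensins (chromosome 3, 63241537 to 63386030, plus strand). In A its libraries had centred log2 values of -1.64 and -3.04, in B of -0.96 and -1.53, in C1 of 0.79 and -0.56, in C2 of 1.74 and 2.14, and in C3 of 0.83 and 0.56. The order was therefore A lowest, then B, with C1 and C3 overlapping and C2 highest. If the lowest library held 2 reads, the fewest that bring the others near whole numbers, the A libraries held 6 and 2 reads and the B libraries 7.02 and 5.99, so A and B rest on little. C1 rose above A with 2.45 ± 0.57, but was not called without the first C1 library (1.77), on the 4 libraries alone or at an adjusted p under 0.01. The difference between B and A was 1.09 ± 0.57 and was called only without the first A library (1.79). C2 was above C1 by 1.83 ± 0.57, a call that was lost with no filter, on the 4 libraries alone, at an adjusted p under 0.01 and without any 1 of the B or C3 libraries, either C2 library or the second C1 library (1.15). Under quantile normalization it was kept, with 2.75. C1 was above B by 1.36 ± 0.57, which was not called. It was called without the second C1 library (2.04), without either A library and with array weights. The Mme difference between C3 and C2 was -1.24 ± 0.57 and was not called, except on the 4 libraries alone.

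**Figure D1:**
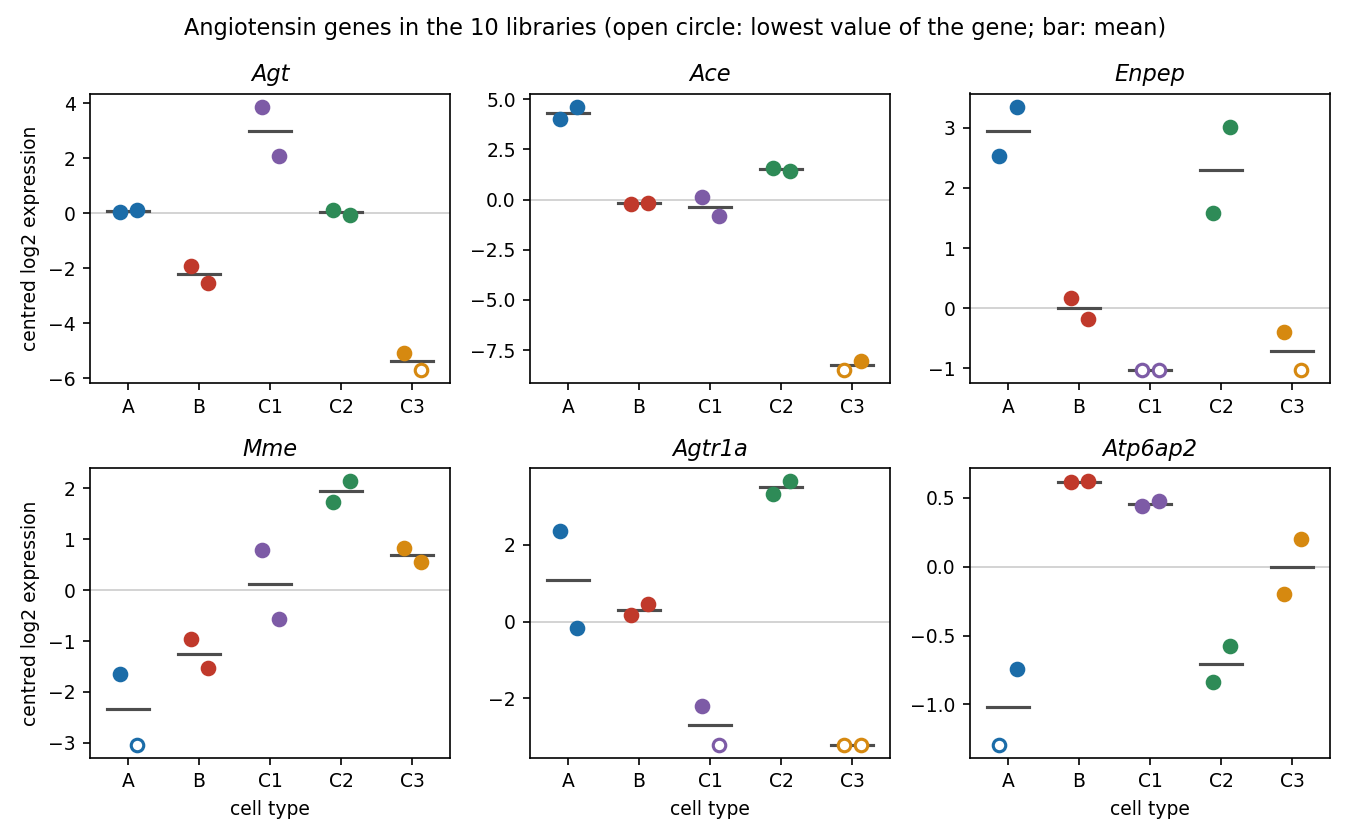
Centred log2 expression of the 6 tested genes (y axis, its own scale in each panel) in the 2 libraries of each cell type (x axis); points are libraries, bars are means of 2 libraries, and open circles mark the lowest value of a gene. Ace is highest in A and about 8 below the zero line in C3, Agt is highest in C1, and Agtr1a and Mme are highest in C2.

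Agtr1a encodes the type 1A angiotensin receptor, the main mouse receptor for the pressor actions of angiotensin II (chromosome 13, 30336441 to 30382867, plus strand). Its paralog Agtr1b is near-identical, and reads could be split between the genes, so Agtr1a values are uncertain. Agtr1b stood at 3.06 normalized reads in the first C2 library and at most 1.15 in any other. Agtr1a stood at 92.7 and 115.9 normalized reads in C2, at 47.1 and 8.21 in A, and at 10.3 and 12.7 in B. C1 had 2.02 and the floor, and both C3 libraries were at the floor. C2 was highest in both libraries, A and B overlapped, and C1 and C3 were at or under their limits. C2 was 34.5-fold above the limit of C1 (30.7 to 52.1 with 1 library left out) and 104-fold above the floor, where C3 lay. A was 9.14-fold above the limit of C1, but only 2.71-fold without the first A library and 15.6-fold without the second. The fitted difference between C1 and A was not called on the 4 libraries alone. B was 3.8-fold above the limit of C1, or 3.41 to 5.74 with 1 library left out. As for Enpep, these folds leave out the counting error of the higher type. The limit is what a library without reads allows, while the first C1 library held 2 reads. The folds over the limit of C1 are thus not lower bounds. The A libraries lay on both sides of B, with a difference between B and A of -0.78 ± 0.75 that became -2.04, and was called, without the second A library, and 0.48 without the first. The Agtr1a call between C1 and B was lost without either B library or without the second C1 library, and at an adjusted p under 0.01.

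Agtr2 encodes the type 2 angiotensin receptor, which opposes many type 1 actions and is high in fetal tissue (chromosome X, 21484544 to 21489164, plus strand). It was listed at 0 in all 10 libraries. So were 18334 genes in all, and of 10 housekeeping genes looked up, 0 were among them. Its expression was not detected at this depth, within the limits of 3 reads given above for A, B, C1 and C2. For C3 the floor could hide up to 3 reads in the first library and 5 in the second.

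**Figure D2:**
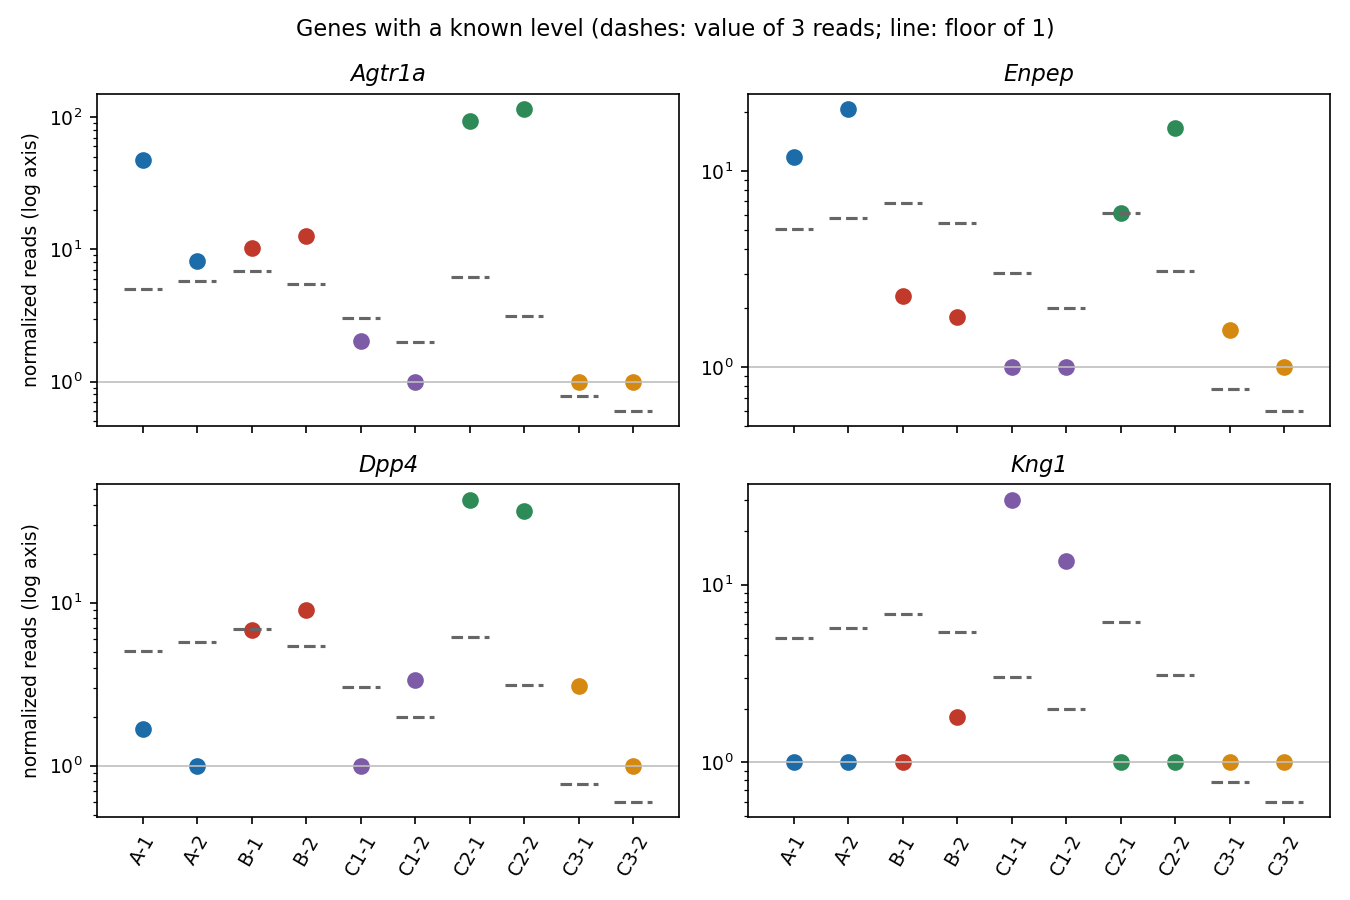
Normalized reads on a log axis for Agtr1a, Enpep, Dpp4 and Kng1 (y axis) in each of the 10 libraries (x axis, cell type and replicate); dashes show the value of 3 reads in that library and the grey line the floor of 1 normalized read. Agtr1a and Dpp4 are highest in the 2 C2 libraries, and Kng1 stands above both the floor and the dashes only in the 2 C1 libraries.

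Atp6ap2 encodes the prorenin receptor (chromosome X, 12587801 to 12617049, plus strand). Its level is unknown. On the centred log2 scale the B libraries stood at 0.61 and 0.62, C1 at 0.44 and 0.47, C3 at -0.20 and 0.20, C2 at -0.84 and -0.57, and A at -1.29 and -0.74. B was highest in both libraries, then C1, then C3, and C2 and A overlapped at the bottom. The range over type means was 1.63, the narrowest of the 6 genes. B rose above A with 1.63 ± 0.23 and C2 fell below C1 with -1.16 ± 0.23, although without the first C2 library this was -1.03 and not called. C3 was above C2 by 0.71 ± 0.23, which did not reach the difference of 1. Under quantile normalization this difference was 1.02 and was called.

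The number of genes called depended on the comparison. Between B and A, 1 of the 6 was called higher in B, where 14.5% of all tested genes were, and 3 lower, where 12.4% were (26.9% either way). Between C1 and A, 3 were called higher (10.1% of all) and 3 lower (16.6%; 26.6% either way). Between C1 and B, 1 was called higher (12.6%) and 1 lower (21.1%; 33.7% either way). From C1 to C2, 4 were called higher (12.2%) and 2 lower (8.18%; 20.4% either way). From C2 to C3, 0 were called higher (11.6%) and 4 lower (16.2%; 27.9% either way), and C3 against C1 had 0 higher (17.1%) and 2 lower (17.7%; 34.8% either way). The medians of the 6 differences were -1.55, -1.16, -0.16, 1.84, -4.22 and -0.48 in that order, where the medians over all tested genes lay between -0.066 and 0.0053. The comparisons share samples, and the genes were picked with these values in view, so nothing is read from the counts.

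**Figure D3:**
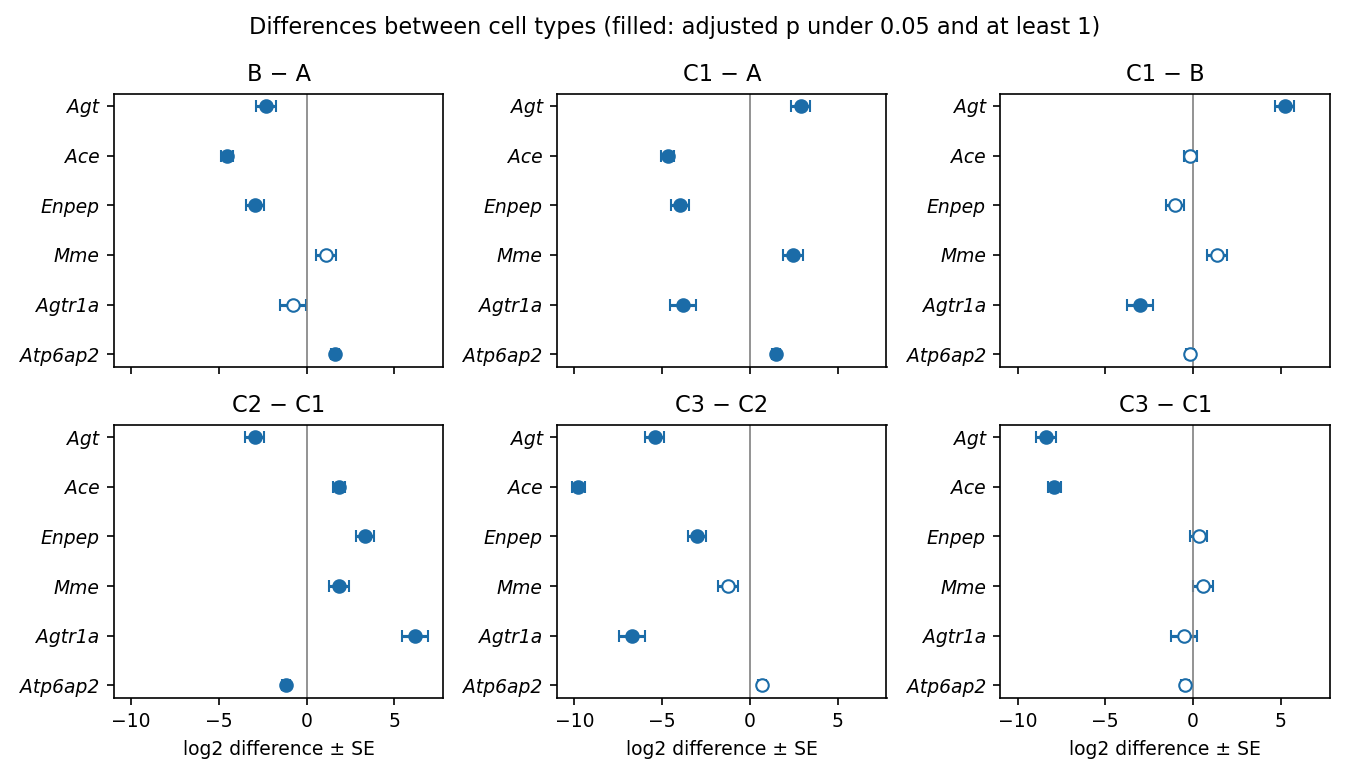
Log2 difference with its limma standard error (x axis) for each of the 6 genes (y axis) in the 6 comparisons, the type named first minus the second; filled points had an adjusted p under 0.05 and a difference of at least 1. Ace and Agt lie far to the left in C3 minus C2 and C3 minus C1. A difference to a type at the floor depends on the floor, so the true change can be smaller or larger, and the error does not cover this.

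Related genes were taken from 4 lists chosen with earlier results known, with 58 genes tested in all. Of these, 32 (55.2%) were called between B and A, where 26.9% of all tested genes were, and 19 (32.8%) between C1 and A, where 26.6% were. Between C1 and B 25 (43.1%) were called, against 33.7% of all, and between C2 and C1 20 (34.5%), against 20.4%. Between C3 and C2 13 (22.4%) were called, against 27.9% of all, and between C3 and C1 19 (32.8%), against 34.8%. Among enzymes that make or break down angiotensins, 12 of 21 were tested. In B against A 4 of them rose and 0 fell (14.5% and 12.4% of all tested genes). In C1 against A 1 rose and 1 fell (10.1% and 16.6%), and in C1 against B 1 rose and 5 fell (12.6% and 21.1%). In C2 against C1 3 rose and 2 fell (12.2% and 8.18%). In C3 against C2 0 rose and 3 fell (11.6% and 16.2%), and in C3 against C1 2 rose and 3 fell (17.1% and 17.7%). Ren1, the renin that starts the pathway, was listed at 0, as were Ctsg and Klk1. Anpep, the aminopeptidase N that follows aminopeptidase A, rose in B against A with 3.76 ± 0.53. It fell in C1 against B with -4.95 ± 0.53. Its A values of 0.23 and 2.14 differed in the same direction as those of Ptprc. Under quantile normalization the Anpep differences were 1.53 and -2.52, and the first was not called on the 4 libraries alone. Ctsa, a carboxypeptidase of lysosomes, rose in B against A with 3.21 ± 0.33 (2.13 under quantile normalization), and Prcp, which removes the last residue of angiotensin II, fell in C1 against B with -2.77 ± 0.23. Dpp4, a dipeptidyl peptidase, stood at 42.9 and 36.3 normalized reads in C2 and at most 9.05 elsewhere.

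Of 20 receptors and signalling genes for angiotensins, kinins and aldosterone, 11 were tested. In B against A 4 rose and 2 fell (14.5% and 12.4% of all tested genes). In C1 against A 1 rose and 1 fell (10.1% and 16.6%), and in C1 against B 2 rose and 4 fell (12.6% and 21.1%). In C2 against C1 2 rose and 2 fell (12.2% and 8.18%). In C3 against C2 0 rose and 2 fell (11.6% and 16.2%), and in C3 against C1 0 rose and 3 fell (17.1% and 17.7%). Kng1, the kininogen from which bradykinin is cut, stood at 30.1 and 13.6 normalized reads in C1 and at most 1.81 in any other library. In C1 it was 3.81-fold above the limit of A and 21.9-fold above the floor, where C3 lay, or 2.37-fold and 13.6-fold without the first C1 library. Rgs2, which dampens signalling by the type 1 receptor, rose in B against A with 2.51 ± 0.39 and fell in C1 against B with -6.47 ± 0.39, and under quantile normalization these were 0.43, not called, and -4.22. Arrb2, an arrestin, rose in B with 3.99 ± 0.42 (1.94 under quantile normalization), and Plcb1, a phospholipase downstream of Gq, fell with -2.95 ± 0.42. Mas1 and the mineralocorticoid receptor Nr3c2 did not reach the filter for low values, and Bdkrb2 was listed at 0.

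Of 20 genes of the neprilysin family, natriuretic peptides and endothelins, 14 were tested. Of these, 2 rose and 3 fell in B against A (14.5% and 12.4% of all tested genes). In C1 against A 1 rose and 5 fell (10.1% and 16.6%), and in C1 against B 1 rose and 4 fell (12.6% and 21.1%). In C2 against C1 0 rose and 3 fell (12.2% and 8.18%). In C3 against C2 2 rose and 3 fell (11.6% and 16.2%), and in C3 against C1 2 rose and 4 fell (17.1% and 17.7%). Nppb, the B-type natriuretic peptide, stood at 134.5 and 296.1 normalized reads in C3 and at most 4.08 elsewhere. Nppc stood at 28.6 and 28.9 in A and at most 4.59 elsewhere. Adm, the vasodilator adrenomedullin, fell in C1 against B and again in C3 against C1 with -4.11 ± 0.36. Under quantile normalization the Adm differences were -1.69 and -2.73. Calcrl, a receptor for adrenomedullin that endothelial cells express, fell in C1 against A with -6.37 ± 0.77. The endothelin receptor Ednra fell in B against A with -4.17 ± 0.48 while Ednrb rose, from 5.04 and 74.7 normalized reads in A to 445.9 and 468.7 in B. The Ednrb difference of 4.56 ± 1.05 was 2.61 without the first A library and 6.50 without the second, was not called without either B library, and was 0.27 under quantile normalization. The summed endothelial markers of known level, 6 of 10, were 118.6 to 191 in A, 319.2 to 348.2 in B and 6 to 6.02 in C1. They were 12.2 to 14.3 in C2 and 35.4 to 55.9 in C3. As for the macrophage markers, low sums in some libraries are built in, and their part in the values above was not tested.

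The vacuolar ATPase list has 22 genes in 23 rows, of which 21 were tested, without Atp6ap2. In B against A 17 rose and 0 fell, where 14.5% of all tested genes rose and 12.4% fell. The median difference was 1.66, and that of Atp6ap2 was 1.63. In C1 against A 9 rose and 0 fell (10.1% and 16.6% of all). In C1 against B 0 rose and 8 fell (12.6% and 21.1% of all), with a median of -0.70, where Atp6ap2 had -0.16 ± 0.23. In C2 against C1 1 rose and 7 fell (12.2% and 8.18% of all), with a median of -0.74, and -1.16 for Atp6ap2. In C3 against C2 1 rose and 2 fell (11.6% and 16.2% of all), and in C3 against C1 1 rose and 4 fell (17.1% and 17.7%). Atp6v0d2, the subunit of osteoclasts and macrophages, stood at 4545 and 4388 normalized reads in B and at 1.68 and 72.4 in A. The ubiquitous subunit Atp6v1c1 rose with 2.56 ± 0.30 and Atp6v0e2 with 2.66 ± 0.24. The 17 calls held when each A or B library was left out in turn, and all 12 macrophage markers rose in the same comparison; the part of macrophage transcripts was not tested.

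**Figure D4:**
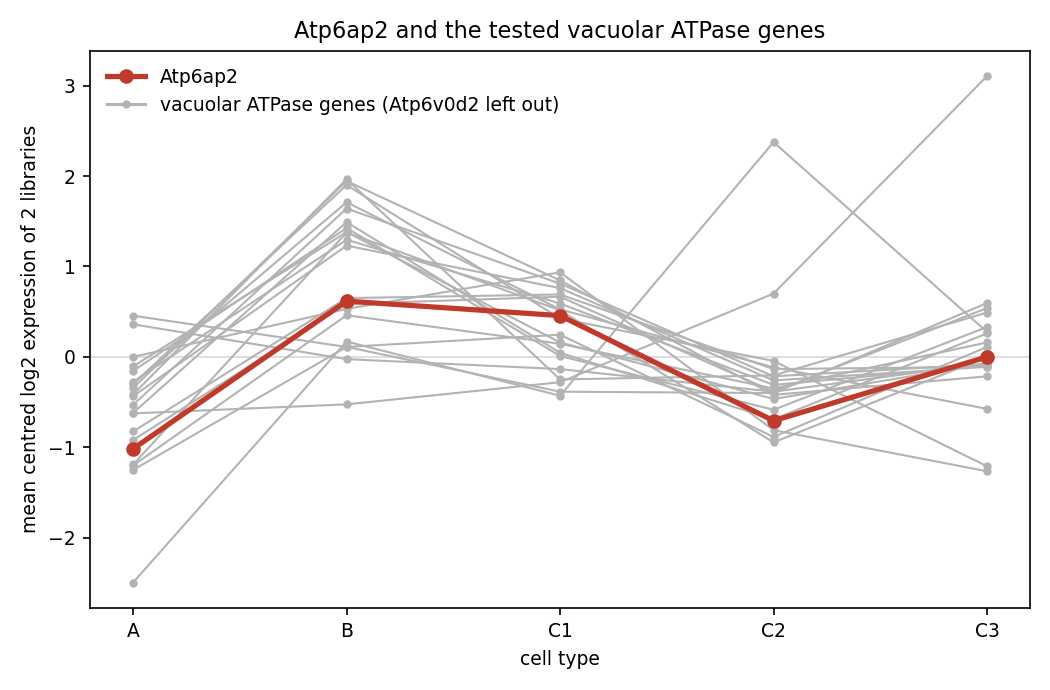
Mean centred log2 expression of 2 libraries (y axis) in each cell type (x axis) for Atp6ap2 (red) and 20 of the 21 tested vacuolar ATPase genes (grey; Atp6v0d2 is left out for its scale). The red line is highest in B and lowest in A, and 17 of the 21 genes were called higher in B than in A.

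The genes nearest to each of the 5 genes with a range of at least 2 were found by the root mean square log2 difference over the 10 libraries among 5663 genes. Nearest to Agt were Thbs2 (0.58), Mark1 (0.74) and Serpina3f (0.76), all highest in C1 and lowest in C3. Nearest to Enpep were Pex5l (0.45), Fam38b (0.50) and Plekha4 (0.52), and among those nearest to Mme were Kcnab1 (0.56) and 2610018G03Rik (0.59). For Agtr1a they were Cdkn1c (0.84), Satb1 (0.90) and Rbp4 (0.92). For Ace the nearest were farther away, with Serpina3n at 1.49, Fndc1 at 1.52 and Rab15 at 1.56. Among the 6 genes themselves, Agtr1a and Enpep were nearest (1.64, Pearson r = 0.78 over 10 libraries, which share cell types in pairs).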

How the data were processed

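RNA from 10 samples was made into libraries with a TruSeq RNA kit, per the labels' protocols; kits of this kind do not mark strand. Per the submitters' processing notes, TopHat, DESeq and mm10 were used, but their versions and roles are not listed. Counting, annotation and scaling: not given in the sources used here. Values as deposited are log2 expression, with a median of 0 per gene. What the authors did to reach this was inferred from the values: size-scaled read counts, floored at 1. The value of 1 read in a library came from the spacing of its low values, of which 33.2% to 73.1% lay within 0.01 of whole reads up to 20 reads, so no test on counts was run for differences, and total reads are unknown. The procedure was tested on simulated data.

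A level is known where at least 2 libraries share the lowest value (4762 of 17821 genes with values). Genes with a date in a cell (17) were left out. A filter of 10 normalized reads in 2 libraries, which acts only on known levels, left 14254 genes, of which 13059 have no known level. limma 3.58.1 (R 4.3.3) was fitted to all 10 libraries with a mean per type, empirical Bayes without trend, two-sided tests and Benjamini-Hochberg adjustment within each of 6 comparisons. Calls needed an adjusted p below 0.05 and a log2 difference of 1 or more in size. Replicate numbers do not pair the samples.

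The 7 genes and all lists were chosen with earlier results of these data known. Named related genes are, in each of 4 lists and each comparison, up to 3 called genes of largest difference, from which the text gives a selection; nearest genes are the 3 of smallest distance per gene. The Y-linked genes, Xist and the folds over the limits with 1 library left out were added after values were seen. Alternatives were no filter, a filter of 50, 2 scalings, array weights, fits on 4 libraries, a replicate block, an adjusted p under 0.01 and leaving out each library. Promoter sequences are from RefSeq, gene coordinates from GENCODE M21. Some results are not reported here.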

Additional observations from a re-analysis of the deposited data

How the results depend on the processing

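Of 606 alternative values of 36 differences of the 6 genes, 548 stayed within 1 SD of the value reported, 58 moved further and 30 changed their call, the stricter threshold not counted. Of the differences called, 0 changed sign, and 5 values of differences not called did. Many alternatives cannot move a difference of type means and change only its error or its call. These are the filters, the fits on 4 libraries, array weights, the replicate block and leaving out a library of another type. The counts of values that stayed close or kept their sign are therefore largely set in advance. Fits on the 4 libraries of the compared types called 3 genes of the 6 in C1 against A and 3 in C2 against C1, where 6 and 6 were called over all 10 libraries. At an adjusted p under 0.01, 1 gene was called in C1 against B instead of 2, and 12 related genes in C2 against C1 and 8 in C3 against C2 instead of 20 and 13. Leaving out 1 library gave 1 to 3 genes of the 6 in C1 against B, and 10 to 22 related genes in C2 against C1, the fewest without the first C2 library (10) and without the second C1 library (11). With a replicate block the counts for the 6 genes did not change (4, 6, 2, 6, 4 and 2), and those for the related genes were 32, 20, 24, 20, 13 and 18, against 32, 19, 25, 20, 13 and 19. The replicate numbers did not pair the libraries (correlations of deviations from -0.061 to 0.089, with 0 of 10 pairs of types above 0.1). Fits on 4 libraries called 2538 genes in B against A and 2375 in C1 against A, where 3835 and 3798 were reported. Quantile normalization moved the share of calls that were higher from 37.7% to 51.3% in C1 against A, from 37.4% to 50.6% in C1 against B, from 59.9% to 49.2% in C2 against C1 and from 41.7% to 52.7% in C3 against C2. Array weights ended the call of Agt in B against A. Of 69 named differences of related genes, 46 were called under every alternative, and Anpep in C3 against C2 reversed under quantile normalization (0.048, from -1.98). Depth limits Enpep, with at most 1 read in each B and C1 library, and Agtr1a, with at most 2 reads in C1.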
